A study of Caenorhabditis elegans with 2 samples.

Results

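The 33 genes described here encode subunits of the proteasome of Caenorhabditis elegans, out of 19973 protein-coding genes in the annotation. They were taken by name, as every protein-coding gene whose name starts with pas-, pbs-, rpt- or rpn-. The data are peak lists from chromatin immunoprecipitation and sequencing (ChIP-seq) of PHA-4 fused to eGFP, a green fluorescent protein tag. The material was whole embryos at a mixture of stages, with sex recorded as males and females pooled. The strain was OP37, genotype unc-119(ed3) III; wgIs37, in which an inserted transgene supplies the tagged protein. Age is recorded as unknown, and the labels name no treatment. There were 2 biological replicates in 1 group and no other group, so no condition was contrasted. The embryos were not sorted, so which cells carried PHA-4 at a given promoter was not measured, and signal from a few cells with strong occupancy and from many with weak occupancy cannot be told apart.

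The proteasome is the large protease that degrades ubiquitin-tagged proteins in the cytoplasm and nucleus. Its core particle is a barrel of stacked rings, the outer ones built from alpha subunits (pas genes) and the inner ones from beta subunits (pbs genes), some of which carry the proteolytic sites. The regulatory particle caps the barrel: a base ring of AAA ATPases (rpt genes) unfolds the substrate, and the non-ATPase subunits (rpn genes) bind ubiquitin, remove it and hold the cap together. In worms, proteasome genes are induced by SKN-1A, an isoform of the transcription factor SKN-1, when proteasome function is impaired. PHA-4 is a FoxA-family transcription factor needed to form the pharynx and also known for a part in adult lifespan under dietary restriction.

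The sequences around the summits of the 6 strongest proteasome peaks on chromosomes II to V are shown because they show which sequence words the best bound proteasome promoters hold and lack. The peak at rpt-6 was added after the values were seen, since its window holds a strict FoxA-type word. Each stretch reached 100 bp to either side of the summit and was read on the strand of the proteasome gene, on ce11 (WBcel235), from the RefSeq genome. Bases in annotated untranslated regions (UTRs) were left out, which removed 74 bases at rpn-5 and 33 at rpt-4. Those stretches are thus shorter than the windows in which words were counted. Capitals mark TRTTKRY (R is A or G, K is G or T, Y is C or T), the published PHA-4 consensus, the words GAGAGA and GACGCAG, and the SKN-1 core words TATCAT and TGTCAT, on either strand.
rpn-3 (chrIII:8447054-8447254, plus strand, signal 216): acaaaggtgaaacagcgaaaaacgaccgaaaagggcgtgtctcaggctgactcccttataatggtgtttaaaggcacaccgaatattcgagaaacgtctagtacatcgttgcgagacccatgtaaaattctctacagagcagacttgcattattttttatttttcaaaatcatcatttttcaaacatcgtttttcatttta
rpn-5 (chrII:4698428-4698554, minus strand, signal 91.0): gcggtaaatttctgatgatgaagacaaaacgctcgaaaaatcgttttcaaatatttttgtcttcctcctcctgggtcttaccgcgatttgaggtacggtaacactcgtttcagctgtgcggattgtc
rpt-2 (chrV:6017714-6017914, minus strand, signal 81.8): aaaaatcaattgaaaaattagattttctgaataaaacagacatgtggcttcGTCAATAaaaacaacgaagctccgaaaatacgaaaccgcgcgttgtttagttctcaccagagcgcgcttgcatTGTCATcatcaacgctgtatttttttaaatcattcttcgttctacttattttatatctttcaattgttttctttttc
rpt-4 (chrII:43739-43906, minus strand, signal 73.5): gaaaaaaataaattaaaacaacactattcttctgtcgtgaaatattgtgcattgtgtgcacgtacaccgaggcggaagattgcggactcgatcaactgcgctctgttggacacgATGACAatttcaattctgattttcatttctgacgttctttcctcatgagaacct
rpn-9 (chrII:11239071-11239271, minus strand, signal 67.6): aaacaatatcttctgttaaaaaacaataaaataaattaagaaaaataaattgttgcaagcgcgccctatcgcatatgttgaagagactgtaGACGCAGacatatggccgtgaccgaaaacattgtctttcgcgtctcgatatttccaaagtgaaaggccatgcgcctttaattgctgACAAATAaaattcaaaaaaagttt
pbs-1 (chrIV:1709817-1710017, minus strand, signal 64.0): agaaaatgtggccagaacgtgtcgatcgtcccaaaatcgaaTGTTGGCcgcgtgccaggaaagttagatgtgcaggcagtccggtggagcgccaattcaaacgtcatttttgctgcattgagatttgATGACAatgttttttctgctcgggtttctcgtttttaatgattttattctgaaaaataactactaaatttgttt
rpt-6 (chrIII:12370107-12370307, plus strand, signal 45.3): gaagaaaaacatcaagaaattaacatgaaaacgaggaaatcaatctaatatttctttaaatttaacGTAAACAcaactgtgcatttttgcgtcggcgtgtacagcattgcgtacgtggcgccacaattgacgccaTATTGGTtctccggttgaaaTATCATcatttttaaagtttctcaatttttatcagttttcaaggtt

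PHA-4 peaks lay at the promoters of a large share of the proteasome genes, in both the core and the regulatory particle. The promoter window took in 1000 bp before and 200 bp after each annotated 5′ end, and a gene was counted as bound when a peak of the authors' thresholded set had its summit there. By this rule 15 of the 33 genes were bound (45.5%, exact Clopper-Pearson 95% interval 28.1 to 63.6, which covers the counting of genes only), against 9.18% of all protein-coding genes. Each of the 15 genes had a peak of its own, so no pair of proteasome genes shared one. The pooled list, called on both replicates together, and the lists of each replicate are labelled as peaks and background. They reach down to weak entries, so an entry in them need not be a peak. In the pooled list 31 of the 33 had an entry (93.9%, against 36.6% of all genes). The 2177 thresholded peaks ran in signal from 35.9 to 348, where signal is the authors' value per peak, and the 15 proteasome peaks ran from 38 to 216 with a median of 59.5. The median over all bound genes was 56.4, so the proteasome peaks were of ordinary strength for bound promoters.

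**Figure D1:**
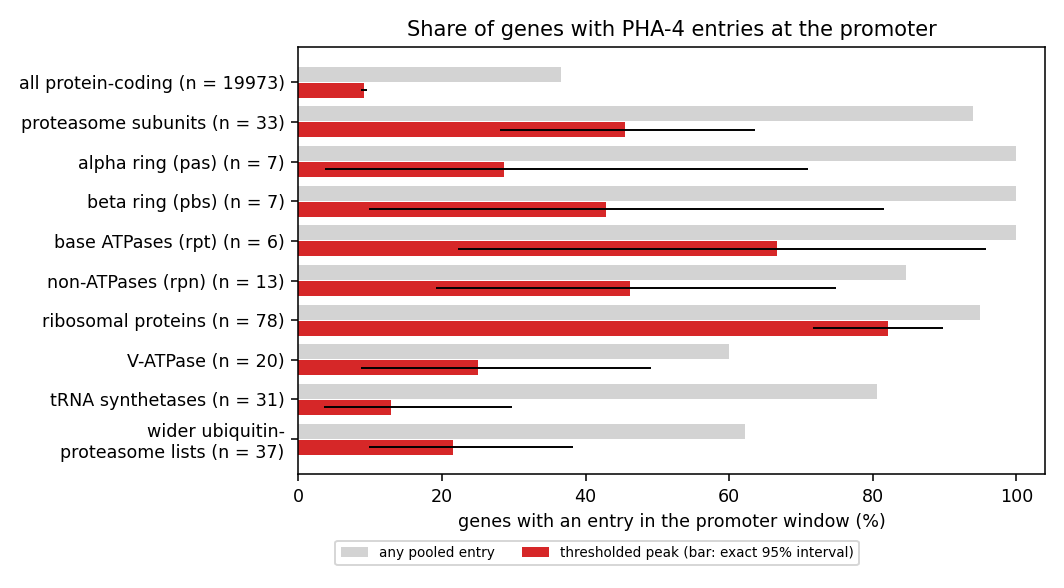
Share of genes (%) whose promoter window holds a thresholded peak (red, with the exact 95% interval as a black line) or any pooled entry (grey), for all protein-coding genes, the proteasome genes and their 4 subunit classes, and other gene classes. The proteasome genes stand at 45.5% for thresholded peaks and 93.9% for any pooled entry, against 9.18% and 36.6% of all genes, and the intervals of the 4 subunit classes overlap.

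Both parts of the proteasome were represented. In the core particle 5 of 14 genes were bound (35.7%), 2 of 7 in the alpha ring and 3 of 7 in the beta ring. In the regulatory particle 10 of 19 were bound (52.6%), 4 of 6 base ATPases and 6 of 13 non-ATPase subunits. The exact intervals of the 4 classes overlapped widely, from 3.67 to 71.0% for the alpha ring to 22.3 to 95.7% for the ATPases, so no order among them can be read. All 14 core genes had a pooled entry, as did all 6 ATPase genes and 11 of the 13 non-ATPase genes.

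**Figure D2:**
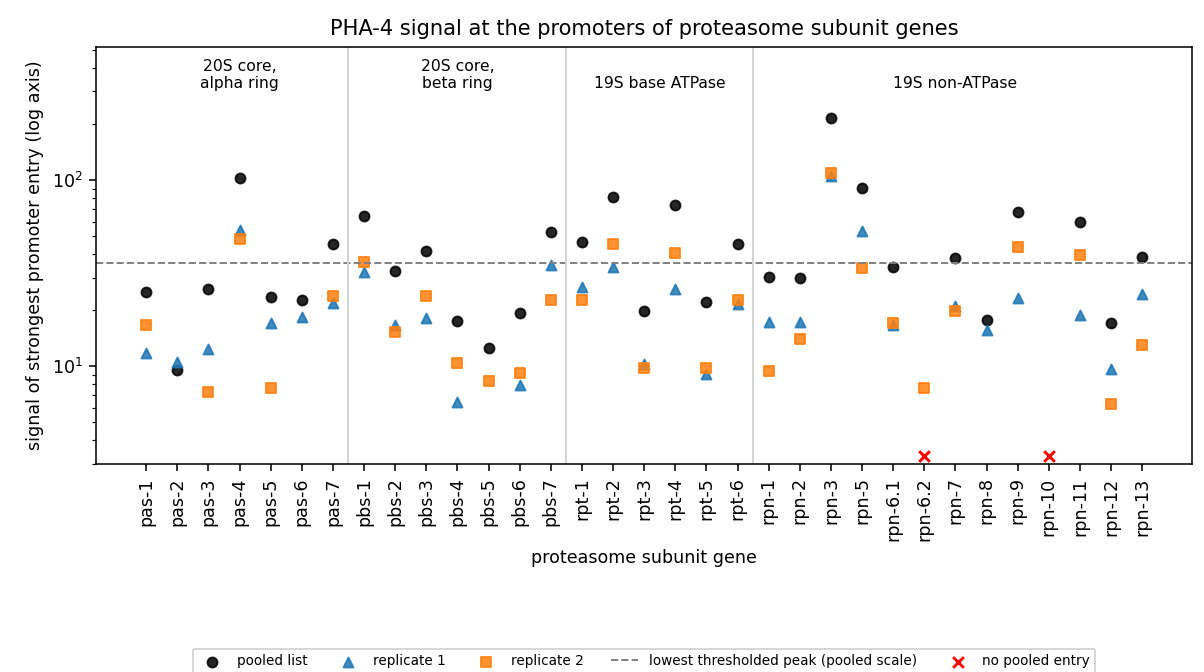
Signal of the strongest entry in the promoter window (log axis) for each of the 33 proteasome genes in the pooled list (black), replicate 1 (blue) and replicate 2 (orange), with the lowest signal of the thresholded set, 35.9, as a dashed line that applies to the pooled list only. rpn-3 stands highest in all 3 lists, and rpn-10 and rpn-6.2 have no pooled entry. Signals were not scaled between lists.

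Among the lid subunits of the regulatory particle, rpn-3 stood far above every other proteasome gene. The rpn-3 peak (chrIII:8447070-8447233) had a pooled signal of 216 and ranked 12 of 2177, with 106 in replicate 1 (rank 15 of 30000) and 109 in replicate 2 (rank 17 of 30000). Its summit lay at -199 bp from rpn-3 and at -245 bp from hsp-110, an Hsp110-type chaperone gene read in the other direction, in sequence outside any protein-coding gene. The rpn-5 peak had a pooled signal of 91.0, with 53.7 in replicate 1 and 33.6 in replicate 2, and its summit lay at -27 bp. It sat in the promoter shared with scc-1, a cohesin subunit gene, from whose 5′ end the summit lay at -267 bp. The rpn-9 peak, shared with T06D8.9, had a pooled signal of 67.6, with 23.3 in replicate 1 and 43.9 in replicate 2. The rpn-7 peak was the weakest of the 15, at 38 in the pooled list, 21.2 in replicate 1 and 19.8 in replicate 2. Its summit lay at -367 bp from rpn-7 and at -49 bp from F49C12.9, the neighbour on the other strand.

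The lid deubiquitinase and a ubiquitin receptor were bound as well. At rpn-11, which encodes the subunit that cuts ubiquitin chains from substrates, the pooled signal was 59.5, with 18.9 in replicate 1 and 39.7 in replicate 2. Its summit at 4 bp was the only one of the 15 downstream of the 5′ end. At rpn-13, a ubiquitin receptor gene, the pooled signal was 38.6 with 24.4 in replicate 1 and 13 in replicate 2. Another ubiquitin receptor gene of the cap, rpn-10, had no entry in any of the 4 lists.

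Of the 6 base ATPase genes, rpt-1, rpt-2, rpt-4 and rpt-6 were bound. The rpt-2 peak had a pooled signal of 81.8, with 34.0 in replicate 1 and 45.6 in replicate 2, and its summit lay almost midway between rpt-2 (-145 bp) and aps-1 (-156 bp), a clathrin adaptor gene. At rpt-4 the pooled signal was 73.5, with 25.9 in replicate 1 and 40.7 in replicate 2. That summit lay at -177 bp from the nearest rpt-4 5′ end and at -68 bp from nfyc-1, which encodes a subunit of the transcription factor NF-Y. A longer rpt-4 transcript starts inside rpoa-49, an RNA polymerase I subunit gene, and with the outermost 5′ end alone rpt-4 was no longer counted. The peaks at rpt-1 (46.6 pooled, 26.8 in replicate 1, 22.7 in replicate 2) and rpt-6 (45.3 pooled, 21.7 in replicate 1, 22.7 in replicate 2) had nearly equal pooled signals, and neither lay in another gene's window. The remaining ATPase genes, rpt-3 and rpt-5, had pooled entries of 19.8 and 22.2, below the thresholded range.

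In the core particle, pas-4 had the strongest peak, with a pooled signal of 103 (rank 218), 54.1 in replicate 1 and 48.6 in replicate 2. Its summit lay between pas-4 (-150 bp) and rpb-3 (-127 bp), an RNA polymerase II subunit gene. The other bound alpha gene, pas-7, had a pooled signal of 45.2, with 22.0 in replicate 1 and 24 in replicate 2, and shared the peak with puf-12, a Pumilio-family gene. Among beta genes, pbs-1 had a pooled signal of 64.0, with 32.2 in replicate 1 and 36.5 in replicate 2. The pbs-7 peak stood at 52.9 in the pooled list, 35.1 in replicate 1 and 22.6 in replicate 2. The pbs-3 peak stood at 41.7 in the pooled list, 18.2 in replicate 1 and 23.9 in replicate 2, and its summit lay inside ulp-2, a SUMO protease gene whose body ends 22 bp upstream of pbs-3. The pbs-5 gene, whose orthologues carry the chymotrypsin-like activity, had a pooled entry of 12.5 at 32 bp, above pas-2 alone (9.61) in the core particle.

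The genes without a thresholded peak mostly had weaker entries. Of these 18 genes, 16 had a pooled entry (88.9%, against 30.2% of all protein-coding genes without a thresholded promoter peak). Their signals ran from 9.61 to 34.0 with a median of 22.4, against a median of 14.2 over the 5478 such genes. The 6 strongest were rpn-6.1 (34.0), pbs-2 (32.6), rpn-1 (30.2), rpn-2 (29.8), pas-3 (25.9) and pas-1 (25). The rpn-1 and rpn-2 genes encode the large scaffold subunits of the base, of which Rpn1 also binds ubiquitin in yeast, and rpn-6.1 encodes a lid subunit that contacts the core particle. In replicate 1 the 6 stood at 16.7, 16.6, 17.4, 17.3, 12.4 and 11.8, and in replicate 2 at 17.0, 15.3, 9.40, 14, 7.27 and 16.6. The nearest to the lower edge of the thresholded set were thus rpn-7 and rpn-13 just inside it, at 38 and 38.6, and rpn-6.1 and pbs-2 just outside. The remaining pooled entries, at pas-5, pas-6, rpt-5, rpt-3, pbs-6, rpn-8, pbs-4, rpn-12, pbs-5 and pas-2, fell in order from 23.5 to 9.61. Of the pair with no pooled entry, rpn-6.2, a paralogue of rpn-6.1, had an entry of 7.69 in replicate 2 only, and rpn-10 had none.

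The replicates were compared to see whether both carried the same proteasome promoters. When the 2177 strongest entries of each replicate were taken alone, 21 of 33 proteasome genes were bound in replicate 1 (63.6%, against 9.64% of all genes) and 13 in replicate 2 (39.4%, against 8.21%). All 13 were also bound in replicate 1, and all were among the 15 of the thresholded set, of which replicate 2 lacked rpn-7 and rpn-13. The 6 further genes in replicate 1 were pas-5, pas-6, pbs-2, rpn-1, rpn-2 and rpn-6.1, and replicate 2 alone added none. Counting any entry, 30 genes had one in replicate 1 (90.9%, against 44.8% of all genes) and 29 in replicate 2 (87.9%, against 43.0%).

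**Figure D3:**
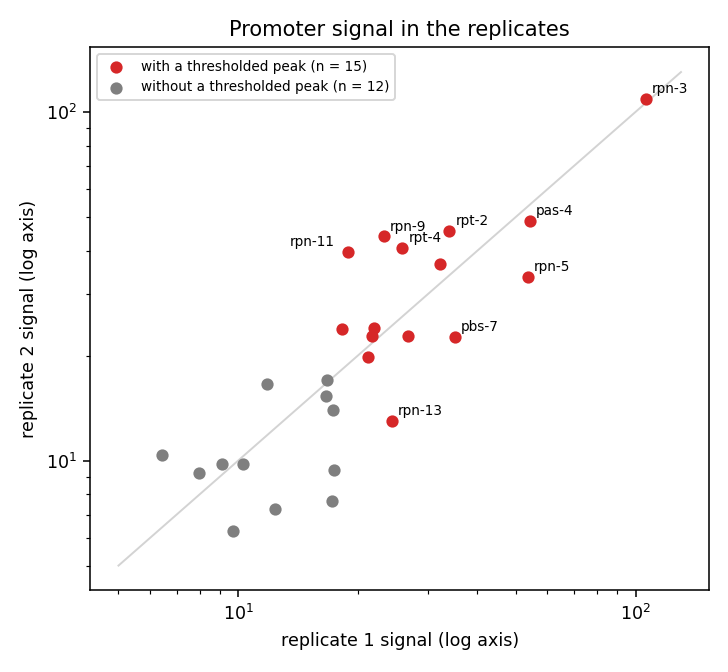
Signal of the strongest promoter entry in replicate 1 (x, log axis) and replicate 2 (y, log axis) for the 27 proteasome genes with an entry in both, those with a thresholded peak in red and the others in grey, with the line of equal values. rpn-3 lies at 106 and 109, rpn-13 lies lowest of the red points at 13 in replicate 2, and signals were not scaled between the lists.

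Signals of the 27 proteasome genes with an entry in both replicates ran together, with a Spearman's rho of 0.806 across genes, against 0.691 over the 5740 protein-coding genes with an entry in both. Genes share the libraries and are not independent replicates, so these are descriptions. The strongest promoter entry of each replicate was taken, so a pair need not be the same site. Among genes without a thresholded peak, the replicate summits lay 183 bp apart at rpn-1, 162 bp at pbs-4 and 155 bp at pas-3. Among the 15 bound genes rho was 0.443, against 0.425 over 1822 bound genes, a range already narrowed by the threshold. The median log2 ratio of replicate 2 over replicate 1 was 0.07 (SD 0.57 across the 15 genes), against 0.15 (SD 0.74) over all bound genes. These ratios are between lists that were not scaled to each other, so which replicate is higher at a gene cannot be read from them. The ratios farthest from the median were at rpn-11, with a log2 ratio of 1.07, at rpn-9, with 0.92, and at rpn-13, with -0.91. Summit positions were close: the replicate summits at the bound genes were a median of 12 bp apart and at most 41.0 bp. Of the 15 proteasome peaks, 13 (86.7%) overlapped a top 2177 entry in each replicate, against 64.1% of all thresholded peaks. The thresholded set was derived from both replicates, so overlap with them is not independent support.

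The peaks lay close upstream of the genes. The median summit distance was -172 bp (range -367 to 4 bp), against -237 bp over all bound genes. Of the 15 summits, 13 (86.7%) lay 100 to 400 bp upstream, against 54.8% of all bound genes, and the exceptions were rpn-5 and rpn-11. That band was not among the planned measures. The quartiles of the distance were -250.5 and -135 bp, against -415 and -129 bp over all bound genes. Of the 15, 12 lay outside the body of any protein-coding gene, the others being those of pbs-3, rpn-11 and rpt-4, and 81.9% of the strongest peaks of all bound genes did so. The entries below the threshold were spread more widely, from -814 bp at pas-1 to 44 bp at pbs-4. The pas-1 entry lay beyond rpoa-12, an RNA polymerase I subunit gene on the same strand that ends 106 bp upstream of pas-1, and at -128 bp from rpoa-12. The rpt-3 entry, at -685 bp, lay inside chtb-2. In C. elegans neighbouring genes on 1 strand can be transcribed from a single upstream promoter as an operon, and whether these genes are was not examined here.

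**Figure D4:**
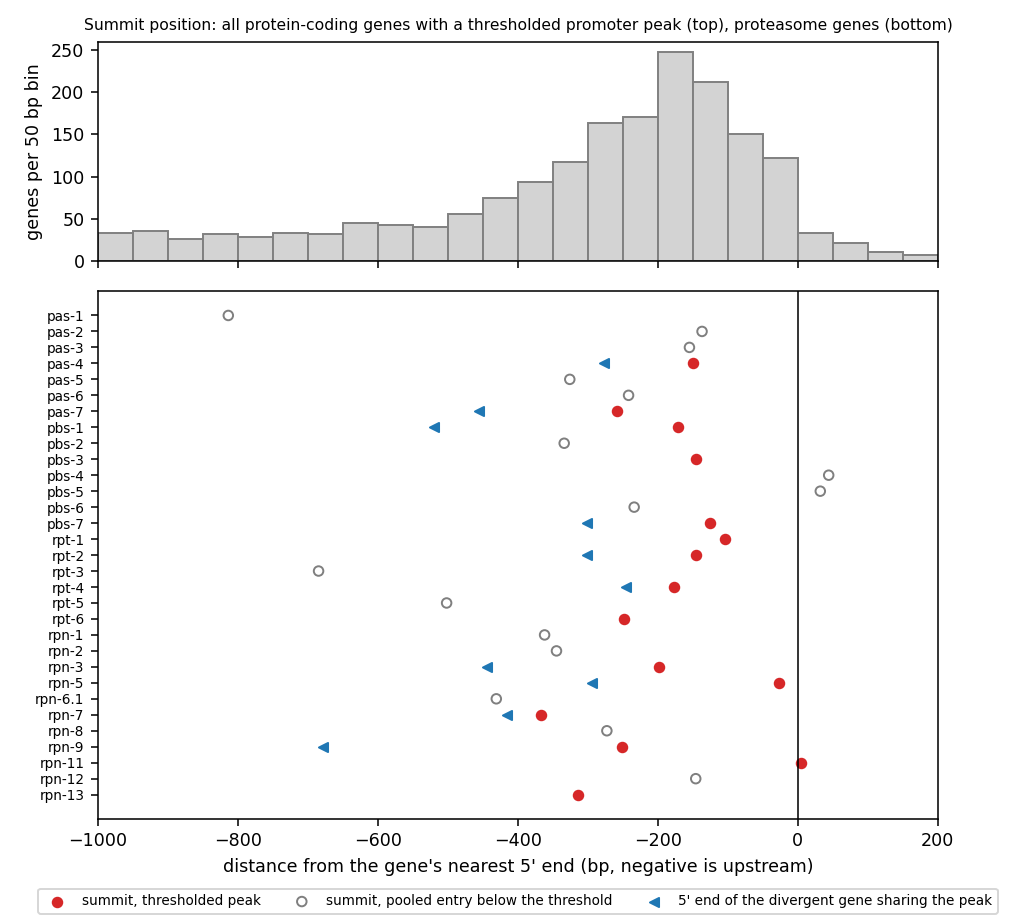
Top, number of protein-coding genes by position of the strongest thresholded promoter summit in 50 bp bins. Bottom, summit of the strongest pooled promoter entry of each proteasome gene (filled red, in the thresholded set, open grey, below it) with the 5′ end of the gene on the opposite strand that shares the thresholded peak (blue). The x axis is the distance in bp from the nearest 5′ end, negative upstream, and 13 of the 15 red points lie between 100 and 400 bp upstream. rpn-10 and rpn-6.2 have no pooled entry.

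Most bound proteasome promoters were also the promoter of a neighbour. Of the 15 bound genes, 10 (66.7%) shared the peak with 1 other gene, in every case on the opposite strand, against 53.7% of all bound genes that shared a peak with any gene. The summit lay nearer to the proteasome gene at pbs-1, pbs-7, rpn-3, rpn-5, rpn-9 and rpt-2, and nearer to the neighbour at pas-4, pas-7, rpn-7 and rpt-4. Peaks alone in their window were at pbs-3, rpn-11, rpn-13, rpt-1 and rpt-6. To which gene of a pair a peak belongs cannot be told apart from these lists. When each summit went to the nearest 5′ end only, 11 of 33 genes remained, against 6.67% of all genes. When peaks in any other gene's window were left out, a choice made after seeing the data, 5 of 33 remained, against 4.30%.

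Divergent arrangement was common among proteasome genes as a class. A neighbour on the opposite strand with its 5′ end within 1000 bp upstream was present at 20 of the 33 (60.6%), against 17.2% of all genes. Among these 20 genes 9 were bound (45.0%, exact interval 23.1 to 68.5), against 22.7% of all genes so arranged. Among the 13 without such a neighbour 6 were bound (46.2%, exact interval 19.2 to 74.9), against 6.37%. Neighbours were read from the outermost 5′ end, so rpt-4, whose outermost end lies inside rpoa-49, stands among the 6 although its peak is shared with nfyc-1. The intervals are wide, and the difference between the arrangements was not tested.

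The bound genes lay on every chromosome that held proteasome genes. Chromosome II held 7 proteasome genes, 6 of them bound against 8.73% of all genes there, the exception being rpn-12, whose entry of 17.1 lay in the promoter shared with rad-23, a ubiquitin shuttle gene. Chromosome I held 10, of which pas-4 and pbs-7 were bound, against 12.1% of all its genes. Chromosome III held 8 with 3 bound (13% of all its genes), chromosome IV 3 with 2 bound (8.81%) and chromosome V 5 with 2 bound (5.91%), and X held none. These are single genes, and no comparison between chromosomes was tested.

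Sequence words were counted in the proteasome summit windows beside other windows. TRTTKRY stood in 8 of the 15 windows (53.3%), against 61.1% of all 2177 thresholded windows and 58.5% of those at other promoters. The strict FoxA-type words TGTTTAC and TGTTTGC, both of which are also matches to TRTTKRY, stood in 2 of 15 (13.3%, at rpn-11 and rpt-6), against 20.6% and 20.8%. These shares, within 100 bp of the summit, were near those of other bound windows for so few windows. For TRTTKRY the share was also near the 51.3% of all pooled entries below the threshold. Of the 16 proteasome entries below the threshold, 10 held TRTTKRY (62.5%). Within 50 bp TRTTKRY stood in 4 of 15 (26.7%), against 42.5% of all thresholded windows and 39.8% of those at other promoters. The strict words stood in 2 of 15 (13.3%) within 50 bp, against 15.7% and 16.2%. At rpn-11 the word lay 10 bp downstream of the 5′ end. GAGAGA, a GA-repeat word common at PHA-4 peaks in these data, stood in 1 of 15 (6.67%, at pas-7), against 47.7% of all thresholded windows and 41.6% of those at other promoters. Over the whole promoter window GAGAGA stood in 18 of 33 proteasome promoters (54.5%), against 50.9% of all promoters. GACGCAG stood in 1 of 15 (6.67%, at rpn-9), against 21.0%. As printed above, the rpn-3 and rpn-5 stretches hold none of the words, and of the 15 windows 6 held neither TRTTKRY nor GAGAGA. Windows with neither word were not counted elsewhere, so whether 6 of 15 is unusual cannot be read. The windows also differed in base composition: the mean GC content was 36.7% in the 15 proteasome windows (from 31.8 to 43.3%), 45.0% in all thresholded windows and 44.0% in those at other promoters. Within 50 bp of the summit the values were closer, at 46.0%, 48.4% and 48.7%. In the 16 weaker proteasome entries GAGAGA stood in 3 windows (18.8%), against 18.5% of all pooled entries below the threshold. The strict FoxA-type words stood in 4 of those 16 (25%, against 9.64%), at pas-2, pbs-2, rpn-6.1 and rpt-3. The part of base composition in the shares of these words was not tested.

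The SKN-1 core words, TATCAT and TGTCAT, were common in the proteasome windows. They stood in 6 of the 15 (40.0%), at pbs-1, rpn-7, rpn-11, rpt-2, rpt-4 and rpt-6, against 14.1% of all thresholded windows and 12.8% of those at other promoters. In the windows of the 16 weaker proteasome entries they stood in 9 (56.2%), against 20.3% of all 19754 pooled entries below the threshold. Those 9 were pas-1, pas-2, pas-6, rpn-1, rpn-2, rpn-6.1, rpn-8, rpn-12 and rpt-5. The mean GC content of these 16 windows was 36.0%, against 38.6% for all entries below the threshold. Over the whole promoter window of 1200 bp the words stood in 29 of 33 proteasome promoters (87.9%), against 76.2% of all promoters. Within 50 bp of the summit they stood in 4 of the 15 thresholded windows (26.7%), against 6.29% of all, and in 3 of the 16 weaker windows (18.8%, down from 9), against 10.3%. A word match is a description of letters, and binding of SKN-1 was not measured.

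The position of the SKN-1 words was examined after their counts were seen. In all 15 proteasome windows that held one there was 1 word, and its middle lay on the side of the summit towards the proteasome gene, 5 to 60 bp from the summit with a median of 50 bp. In the windows of the other protein-coding genes with a pooled entry, 47.5% of 1403 such words lay on the side of the gene, from -97 to 98 bp. Those genes include the neighbours that share a window with a proteasome gene. TRTTKRY words showed no such side in the proteasome windows, with 8 of 22 (36.4%) towards the gene, against 49.4% of 6427 words at other genes. In the stretches printed above the SKN-1 word is the last capital run at rpt-2, rpt-4, pbs-1 and rpt-6, written as ATGACA where it is on the opposite strand. No test was made of this position, since the words were singled out with their values known.

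**Figure D5:**
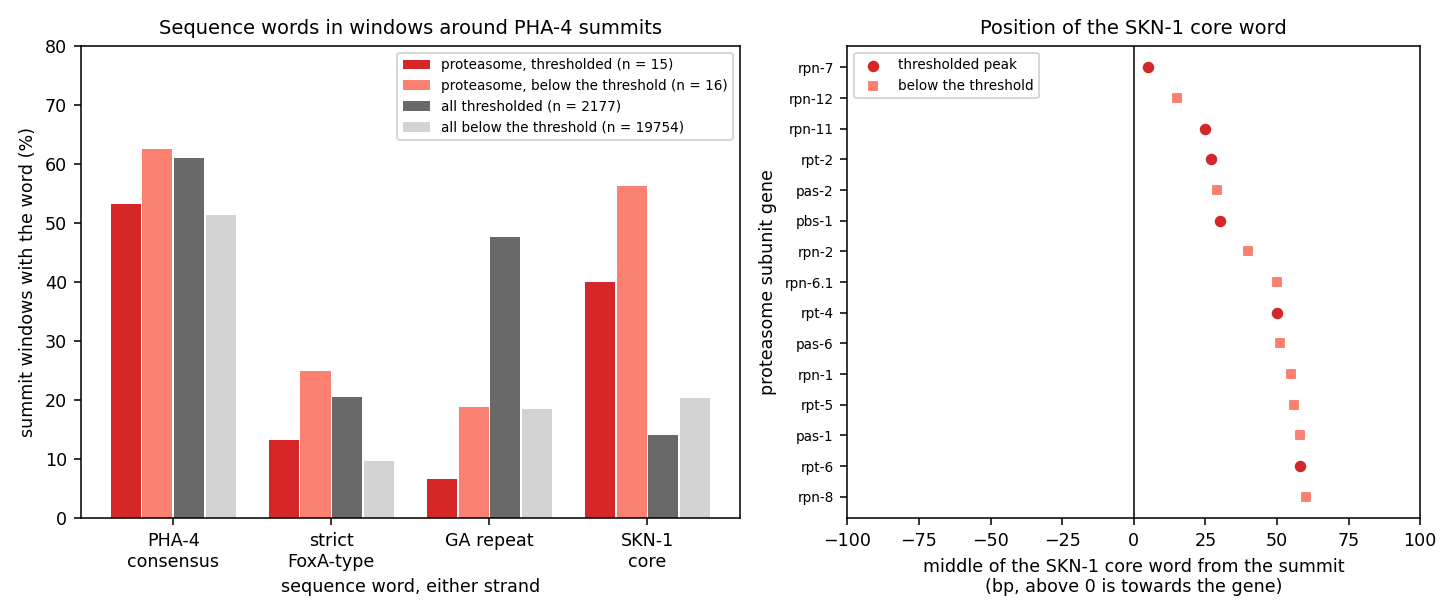
Left, share of summit windows of 201 bp (%) that hold each word, for the 15 thresholded and 16 weaker proteasome entries, all thresholded peaks and all pooled entries below the threshold. Right, middle of the SKN-1 core word relative to the summit (bp, above 0 towards the gene) in the 15 proteasome windows that hold it. The GA repeat stands in 6.67% of thresholded proteasome windows against 47.7% of all, and every SKN-1 word lies 5 to 60 bp towards the gene.

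Other gene classes and the wider ubiquitin pathway were set beside the proteasome genes. Of the genes for cytosolic ribosomal proteins 64 of 78 were bound (82.1%), of the proton pump (V-ATPase) genes 5 of 20 (25%), and of the aminoacyl-tRNA synthetase genes 4 of 31 (12.9%), against 9.18% of all genes. The ribosomal protein windows held the SKN-1 words in 4.92% and GAGAGA in 24.6% of 61 peaks, with a mean GC content of 42.0%. In the lists of ubiquitin, proteasome-associated, Cdc48, signalosome, cullin and SKN-1A pathway genes, 8 of 37 were bound (21.6%, exact interval 9.83 to 38.2, against 9.18% of all genes). The strongest were cdc-48.1 (154), which encodes the AAA ATPase that extracts ubiquitin-tagged proteins, ecps-1 (105), an ECM29-type gene for a proteasome-binding protein, and ubql-1 (97.1), a ubiquilin-type shuttle gene. The others were the ubiquitin ligase gene ufd-2 (72.0), the ubiquitin fusion gene ubq-2 (60.5), the cullin genes cul-4 (53.5) and cul-2 (38), and csn-1 (37.3), a COP9 signalosome gene. Of these peaks 5 lay in another gene's window too. The summit was nearer to the neighbour at ecps-1 (-806 bp, against -32 bp from atx-2), ubq-2 (-476 bp, against -163 bp from frg-1) and csn-1 (-599 bp, against -143 bp from phf-14). It was nearer to the listed gene at ubql-1 (shared with pdi-3) and cul-2 (shared with dyf-2). These positions are those of each gene's strongest peak, and ecps-1 had 2 thresholded peaks in its window. With the nearest 5′ end only, 6 of the 8 remained in count. Of the 5 SKN-1A pathway genes (skn-1, png-1, ddi-1, sel-1 and sel-11) 0 were bound, a list too short to set against the 9.18% of all genes. Of the 5, sel-1 had a pooled entry, at 14.2, while 4 had an entry of any strength in replicate 1 and 3 in replicate 2.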

How the data were processed

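PHA-4 ChIP-seq peaks of 2 biological replicates were read from the deposited ce11 lists: each replicate's own list, the list called on pooled replicates and the thresholded set, which the authors derived by the irreproducible discovery rate (IDR). Lists on ce10 were not used here. The pooled list and the replicate lists, of 30000 entries each replicate, are labelled as peaks and background, as input for the IDR step. The authors' deposited signal per peak is not scaled between lists. Per the labels, peaks were called against 2 control files on ce11, and the extraction protocol is not provided. The antibody label reads pha-4, whereas the description names the eGFP fusion. The caller, the aligner and the threshold of the IDR step are named in none of the sources used here. Read depth is unknown, and reads from the transgene and from the gene it copies were not separated.

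Summits were assigned to promoters (1000 bp before to 200 bp after any 5′ end) of the Ensembl 115 annotation, and the assignment was checked on simulated peaks. Words were searched on both strands within 100 bp of the summit. All proteasome genes were named, with full values for bound genes, values for the 6 strongest others, every bound gene of the wider lists, and sequences of the 6 strongest peaks outside chromosome I. Genes, lists and words were chosen with earlier results of these data known, so counts are described beside all genes and no test was made. Alternatives were the thresholded peaks above the set's median signal of 54.4, all pooled entries, windows of 500 and 2000 bp, any overlap, the outermost or nearest 5′ end, each replicate left out, a 50 bp word window, and other overlap rules (50% reciprocal, summits within 50 bp, any replicate entry). The work used pandas 2.3.3, scipy 1.17.1 and numpy 2.4.6 under Python 3.11.15, with matplotlib 3.10.9 for plots.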

Additional observations from a re-analysis of the deposited data

How the results depend on the processing

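The 15 bound proteasome genes remained 15 with a window of 500 bp or any overlap, and were 16 with 2000 bp (pbs-5 gained), 14 with the outermost 5′ end and 11 with the nearest. With the peaks above the median signal 8 were bound (2 core, 6 regulatory) at 8 peaks of median signal 77.6, with 4.91% of all genes and 5 wider-pathway genes. With every pooled entry, background included, 31 genes had an entry (14 core, 17 regulatory), at 40 distinct entries. The medians over these genes were 34.0 in signal and -234 bp in distance. Of all genes 36.6% had such an entry, as did 23 wider-pathway genes. The share of all genes was 7.48% with 500 bp, 11.9% with 2000 bp, 9.65% with any overlap, 8.58% with the outermost and 6.67% with the nearest 5′ end, which left 3 core genes. In no other gene's window (added after seeing the data) lay peaks of 5 genes, 1 core and 4 regulatory, against 4.30%. Leaving out either replicate gave 13 to 21 bound genes, 5 to 8 core genes, a median distance of -242 to -163 bp and 8.21 to 9.64% of all genes. Without replicate 1 there were 13 distinct entries, with a strict FoxA-type word in 2 windows and GAGAGA in 1. Without replicate 2 there were 22 distinct entries, with a strict word in 5 windows and GAGAGA in 2. Background shares of these words were not counted for either setting. With 50 bp to a side TRTTKRY stood in 4 of the 15 windows (26.7%), against 42.5% of all thresholded windows and 39.8% of those at other promoters. At the 8 peaks above the median signal TRTTKRY stood in 4 windows, a strict word in 1 and GAGAGA in 0, with no background share counted. The Spearman correlation between replicates was 0.443 over bound genes only. The cause of these shifts was not tested, beyond the fewer or more peaks each setting holds. For the signals of 21 genes (the 15 bound and the 6 strongest others, not run for the rest), 84 alternatives were run. They were windows of 500 and 2000 bp, any overlap and the outermost 5′ end, without the nearest. Of these, 81 left the signal unmoved and 3 left no entry (pas-1 with 500 bp, rpn-6.1 and rpt-4 with the outermost 5′ end). The signal of an entry is fixed by the caller, so these settings could move it only by changing which entry was strongest. No paired analysis was possible because there is 1 group. Unknown depth limits what a missing entry shows.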
